A study of Homo sapiens with 12 samples.

Results

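The genes described here are 10 factors that cut nascent transcripts and add the poly(A) tail: NUDT21, CPSF6 and CPSF7 of cleavage factor Im, CSTF2 and CSTF3 of the cleavage stimulation factor, PCF11 of cleavage factor II, and CPSF1, CPSF2, CPSF3 and CPSF4 of the cleavage and polyadenylation specificity factor. They were taken by gene symbol from the 60648 genes listed in each of the deposited count tables, and all 10 were found and tested in both tables. The study measured RNA by sequencing of 12 libraries from MOLM13 and OCIAML5, established human acute myeloid leukemia lines, in 6 groups of 2. In the PSPC1 experiment, MOLM13 and OCIAML5 cells each carried a control hairpin (shCTL) or a hairpin against PSPC1 (shPSPC1), and in the PU.1 experiment OCIAML5 cells carried shCTL or a hairpin against PU.1 (shPU1). Control and knockdown cells alike had been infected with lentivirus and then selected with puromycin or sorted for GFP, and all OCIAML5 cells were grown with GM-CSF. The labels give 1 hairpin name for each target, no time after infection, and nothing on whether replicate libraries are separate cultures, so p-values here measure only the spread from library to library, which may be technical. In such bulk RNA, fewer cells of a kind and less RNA per cell cannot be told apart.

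Cleavage factor Im binds UGUA sequences ahead of the poly(A) signal through NUDT21, and CPSF6 or CPSF7 serves as its larger subunit. CPSF reads the AAUAAA signal and cuts the RNA, CstF binds U-rich and GU-rich sequence after the cut, and cleavage factor II, with PCF11, couples cleavage to the end of transcription. Many genes carry several poly(A) sites, and the levels of these factors are known to shift which site is used, with loss of NUDT21 favoring sites nearer to the promoter. PSPC1 is a paraspeckle protein. Paraspeckles form on the long isoform of the noncoding RNA NEAT1, and cleavage factor Im is known to promote the early polyadenylation that makes the short isoform. PU.1, encoded by SPI1, is an ETS-family transcription factor of myeloid cells.

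The end of short NEAT1 is shown because it is the site at which cleavage factor Im is known to act. The last 200 bases before it lie at chr11:65426314-65426513 on the plus strand of GRCh38, at the end of transcript NEAT1-208, within the single exon of the long transcript. Capitals mark UGUA, written as TGTA, and the poly(A) signal AATAAA.
NEAT1 short end: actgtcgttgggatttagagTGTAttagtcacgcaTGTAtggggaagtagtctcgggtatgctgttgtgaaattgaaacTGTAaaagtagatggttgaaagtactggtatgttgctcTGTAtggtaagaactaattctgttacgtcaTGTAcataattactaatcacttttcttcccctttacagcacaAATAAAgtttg
The window held 5 TGTA and 1 AATAAA on the transcribed strand. Counted from start to start, the first TGTA lay 169 bases and the last 42 bases before AATAAA, which opens the last 11 bases. At least as many TGTA were found in the last 200 bases of 2141 of 198128 annotated transcripts, or 1.08%. The match of letters is a description of this window and not a measure of binding.

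Short promoter windows are shown for the members that hold the ETS core CCGGAAG, since PU.1 is an ETS factor and one experiment lowered it. Promoters came from RefSeq (GRCh38.p14), 250 bases before to 50 after each start, and 9 of the 10 members had an entry, with 10 promoters in all because CPSF4 has 2. The letters are on the strand of the gene, 5′ to 3′, and capitals mark CCGGAAG or its reverse complement CTTCCGG. A single match is printed for each gene. The matches describe letters and do not measure binding by PU.1 or any other factor.
NUDT21, chr16:56451334-56451360, minus strand: tccgggttcaCTTCCGGcgtgcctacg
CSTF2, chrX:100820384-100820410, plus strand: ctttggcgcaCCGGAAGccgactcaac
CSTF3, chr11:33161524-33161550, minus strand: gcccactgccCCGGAAGttaatgcgga
CPSF3, chr2:9423598-9423624, plus strand: cgtcccccgaCCGGAAGtcgaggggag
CPSF7, chr11:61430012-61430038, minus strand: cctgcgcatgCCGGAAGtggcggtgcg
CCGGAAG was found on either strand in 5 of the 10 member promoters and in 10.3% of all 35116 promoters of that length. The site that PU.1 itself prefers, GAGGAAGT, which shares the letters GGAAG with the ETS core, was found in 0 of the 10 and in 2.59% of all. Among 4 versions of the E2F site, TTTGGCGC was found in CPSF3 and CSTF2 and in 0.652% of all promoters, and TTTCCCGC, TTTCGCGC and TTTGCCGC in none of the 10. In CSTF2 that match stands next to the ETS core and can be read in lower case in the window above. CCAAT was found in 6 of the 10 and in 34.6% of all, TGACGTCA in CSTF3 alone among the 10 and in 1.85% of all, and CACGTG in 0 of the 10 and in 7.26% of all.

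Libraries held 15.4 to 22.8 M counts in the PSPC1 experiment and 26.3 to 39.7 M in the PU.1 experiment. The lowest count of a member in any library was 265, so none was near the limit of detection. In knockdown libraries PSPC1 itself stood at 27.1 and 27.7 CPM (counts per M counts of the library, scaled by TMM within each table) in MOLM13 against 130 and 135 in controls, and at 18.9 and 19.2 CPM against 99.1 and 98.8 in OCIAML5. SPI1 stood at 47.5 and 46.2 CPM after PU.1 knockdown against 227 and 204. PSPC1 RNA was also lower after PU.1 knockdown, by 0.89 ± 0.055 (SE) on the log2 scale. Of 7 myeloid markers 6 exceeded 1 CPM in all 12 libraries (summed level 639 to 1580 CPM), and SPI1 is one of the 7. Those of T cells summed to at most 2.97 CPM, B cells to 4.3, erythroid cells to 0.251, epithelial cells to 2.19 and fibroblasts to 1.34, with 1 B-cell and 1 fibroblast marker at 0 throughout. The summed level of 5 proliferation markers (such as MKI67 and MCM2) went down in each experiment. In MOLM13 they summed to 1730 and 1760 CPM in controls and to 308 and 318 after PSPC1 knockdown, in OCIAML5 to 2160 and 2100 against 709 and 708, and in the PU.1 experiment to 2560 and 2640 against 1230 and 1180. All 5 passed the test as lower in each knockdown, and their part in the changes of the members below was not tested. The mitochondrial share of counts was 9.32% and 9.86% in MOLM13 controls against 12.4% in both PSPC1 knockdown libraries, and 12% and 10.8% against 14.3% in OCIAML5, and its part was not tested either.

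NUDT21 fell the most of the 10 members after PSPC1 knockdown, to nearly the same level in both lines, while cleavage factor Im's alternative large subunits parted: CPSF6 fell and CPSF7 did not pass the test. CSTF2, the RNA-binding subunit of CstF, and CPSF3, the endonuclease, fell in both lines. PCF11 rose in both, though its rise in MOLM13 rested on knockdown library 2. After PU.1 knockdown 9 of the 10 fell, against 30.9% of all genes called lower, with CSTF2 and its partner CSTF3 ahead of NUDT21. Among them, the CPSF4 call was lost when libraries were scaled by size alone.

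Counts were compared with edgeR's quasi-likelihood F test, with Benjamini-Hochberg adjustment over all genes tested and a threshold of 0.05. In MOLM13, 1 member rose, 6 fell and 3 did not pass, against 57% of all 16457 genes called in either direction, 27.6% higher and 29.5% lower. In OCIAML5 after PSPC1 knockdown, 2 rose, 5 fell and 3 did not pass, against 56% of all genes called, 27.5% higher and 28.4% lower. After PU.1 knockdown none rose, 9 fell and 1 did not pass, against 60.4% of 16861 genes called, 29.6% higher and 30.9% lower. The median log2 fold change of the members was -0.36, -0.19 and -0.48 in that order, beside 0.01, 0.02 and 0.02 over all genes tested. Both knockdown libraries lay beyond both controls for 10, 8 and 10 members, but this also held for 75.6%, 75.8% and 78.7% of all genes. The members' calls were thus mostly downward.

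**Figure D1:**
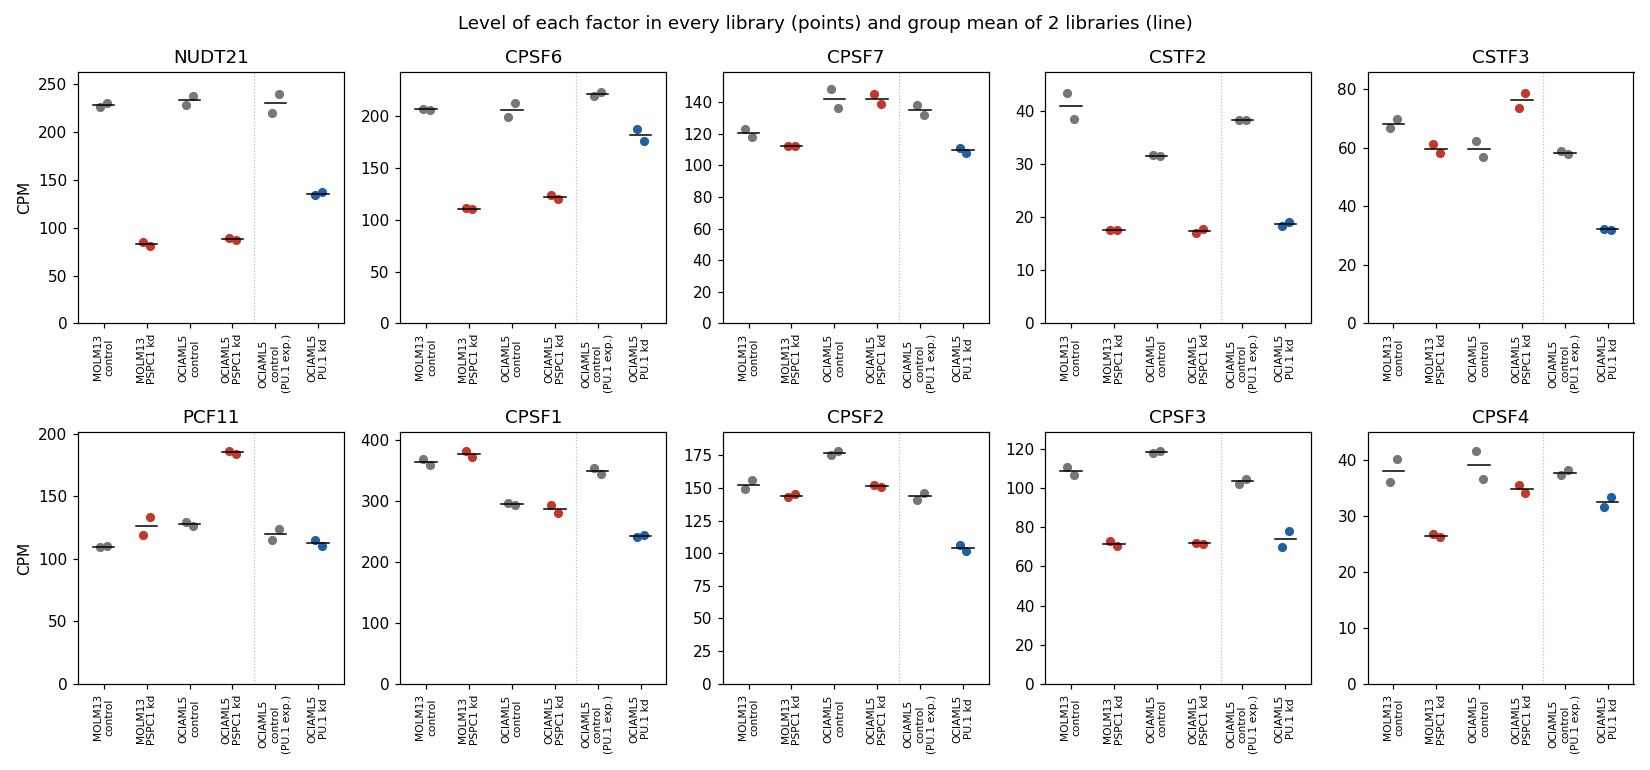
Level of each of the 10 factors in CPM (vertical axis, from 0) in the 12 libraries (points), with the mean of the 2 libraries of a group as a line; kd stands for knockdown, and a dotted line separates the PU.1 experiment, whose table was scaled separately. NUDT21 stood at 80.9 to 88.8 CPM in the 4 PSPC1 knockdown libraries and at 220 CPM or more in all 6 controls, while CPSF7 in OCIAML5 overlapped its controls after PSPC1 knockdown.

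NUDT21 (chr16:56429133-56452199, minus strand, GRCh38) encodes the subunit that binds UGUA. It stood at 226 and 230 CPM in MOLM13 controls and at 84.6 and 80.9 CPM after PSPC1 knockdown. OCIAML5 libraries held 228 and 238 CPM in controls and at 88.8 and 87.5 after PSPC1 knockdown, and in the PU.1 experiment at 220 and 240 in controls and 134 and 137 after PU.1 knockdown. No knockdown library reached a control, and the PSPC1 knockdown libraries of the lines lay within 8 CPM of each other. The fall was 2.75-fold in MOLM13 (log2 fold change -1.46 ± 0.052 SE, adjusted p = 4.8e-29 in edgeR's test), 2.64-fold in OCIAML5 (-1.40 ± 0.051, adjusted p = 1.2e-28) and 1.7-fold after PU.1 knockdown (-0.76 ± 0.046, adjusted p = 6.8e-24). Of all genes tested, 7.76%, 6.54% and 11.2% had a log2 fold change as low or lower in those comparisons.

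CPSF6 (chr12:69239537-69274358, plus strand) encodes the larger subunit of cleavage factor Im that is best known for driving use of distal sites. Its level was 207 and 206 CPM in MOLM13 controls and 111 and 110 after PSPC1 knockdown, and 199 and 212 against 124 and 120 in OCIAML5. The PU.1 experiment gave 219 and 223 CPM in controls and 187 and 176 in knockdown. Groups did not overlap in any of the 3 comparisons, and the gap was narrowest after PU.1 knockdown. The fall was 1.87-fold (log2 fold change -0.90 ± 0.051, adjusted p = 4e-21), 1.68-fold (-0.75 ± 0.05, adjusted p = 2.3e-18) and 1.22-fold (-0.29 ± 0.044, adjusted p = 4.3e-08) in edgeR's test.

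CPSF7 (chr11:61402641-61430031, minus strand) encodes the alternative larger subunit. It stood at 123 and 118 CPM in MOLM13 controls and 112 and 112 after PSPC1 knockdown, and in OCIAML5 at 148 and 136 against 145 and 139. PU.1 knockdown took CPSF7 to 111 and 108 CPM from 138 and 132. The OCIAML5 libraries of the PSPC1 experiment overlapped, and the other pairs did not. CPSF7 did not pass the test after PSPC1 knockdown in MOLM13 (-0.11, 95% interval -0.22 to 0.01, adjusted p = 0.1) or OCIAML5 (0.00, interval -0.11 to 0.1, adjusted p = 0.97), and it fell after PU.1 knockdown (-0.29 ± 0.049, adjusted p = 2.7e-07), all in edgeR's test. With the controls of the PU.1 experiment in place of its own, an alternative chosen after the data were seen, the OCIAML5 value after PSPC1 knockdown was 0.13 with an adjusted p of 0.025 in edgeR's test.

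Ratios of counts within a library do not depend on scaling. CPSF6 to CPSF7 was 1.69 and 1.74 in MOLM13 controls and 0.986 and 0.98 after PSPC1 knockdown. In OCIAML5 the ratio was 1.35 and 1.56 against 0.858 and 0.867 after PSPC1 knockdown. PU.1-experiment controls had 1.59 and 1.69, and PU.1 knockdown libraries 1.68 and 1.63. The balance of the large subunits thus shifted toward CPSF7 in the PSPC1 knockdown libraries, and the PU.1 knockdown libraries overlapped their controls. NUDT21 relative to the sum of CPSF6 and CPSF7 was 0.685 and 0.709 against 0.379 and 0.365 in MOLM13, 0.656 and 0.684 against 0.331 and 0.337 in OCIAML5, and 0.616 and 0.676 against 0.449 and 0.481 in the PU.1 experiment. NUDT21 was therefore lower relative to its partners in all 6 knockdown libraries than in all 6 controls. The ratios are given as a description, with no test, and an exact two-sided permutation test of 2 libraries against 2 could not go below a p of 0.33.

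**Figure D2:**
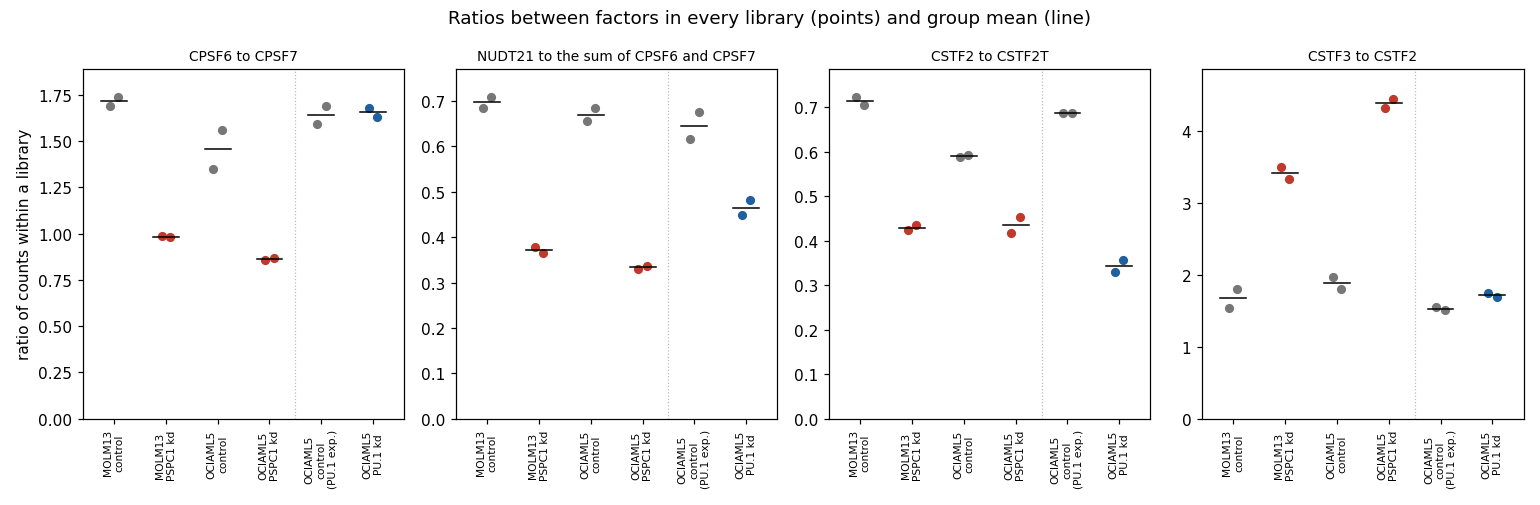
Ratio of counts between named factors within each library (vertical axis, no unit, from 0), shown as points with the group mean as a line; kd stands for knockdown and the dotted line separates the PU.1 experiment. CPSF6 to CPSF7 lay under 1 in the 4 PSPC1 knockdown libraries, CSTF2 to CSTF2T was lower in every knockdown group than in its controls, and CSTF3 to CSTF2 was at 3.33 or above in the PSPC1 knockdown libraries alone.

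CSTF2 (chrX:100820359-100840932, plus strand) encodes the CstF subunit that binds RNA after the cut. It stood at 43.3 and 38.5 CPM in MOLM13 controls and at 17.5 and 17.5 after PSPC1 knockdown. OCIAML5 libraries held 31.6 and 31.4 CPM in controls and at 17 and 17.7 after PSPC1 knockdown. PU.1 knockdown took CSTF2 to 18.4 and 19 CPM from 38.2 and 38.2. The 6 knockdown libraries lay between 17 and 19 CPM whatever the line or target, and every control was at 31.4 or above. It fell 2.34-fold (log2 fold change -1.23 ± 0.11, adjusted p = 2.8e-14), 1.82-fold (-0.86 ± 0.11, adjusted p = 1e-09) and 2.04-fold (-1.03 ± 0.081, adjusted p = 2.2e-18) in edgeR's test.

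CSTF2T, an intronless copy of CSTF2 on chromosome 10 that encodes a closely related protein, fell less or did not pass. Its level was 59.9 and 54.6 CPM in MOLM13 controls and 41.1 and 40.3 after PSPC1 knockdown (log2 fold change -0.50, adjusted p = 5.5e-07 in edgeR's test). In OCIAML5 it fell by 0.42 on the log2 scale after PSPC1 knockdown (adjusted p = 1.2e-05 in edgeR's test). After PU.1 knockdown it stood at 55.9 and 53.3 CPM against 55.5 and 55.5, and the value of -0.03 did not pass (adjusted p = 0.75). CSTF2 to CSTF2T was 0.723 and 0.706 against 0.425 and 0.435 in MOLM13, 0.588 and 0.594 against 0.417 and 0.453 in OCIAML5, and 0.687 and 0.688 against 0.329 and 0.356 in the PU.1 experiment. CSTF2 thus lost ground to its copy in every knockdown library. How reads matching both genes were counted is unknown here, so the exact ratio is uncertain.

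CSTF3 (chr11:33077188-33162371, minus strand) encodes the CstF subunit that holds the complex together, and it differed in direction between comparisons. In MOLM13 it stood at 66.6 and 69.9 CPM in controls and 61.1 and 58.3 after PSPC1 knockdown. OCIAML5 libraries held 62.2 and 56.7 CPM in controls and at 73.6 and 78.7 after PSPC1 knockdown, above both controls. In the PU.1 experiment it stood at 59 and 57.7 CPM in controls and at 32.2 and 32 in knockdown, the lowest of all groups. CSTF3 fell 1.14-fold in MOLM13 (-0.19 ± 0.071, adjusted p = 0.019), rose 1.28-fold in OCIAML5 after PSPC1 knockdown (0.35 ± 0.07, adjusted p = 2.3e-05) and fell 1.82-fold after PU.1 knockdown (-0.86 ± 0.067, adjusted p = 2e-18), in edgeR's test. The MOLM13 call did not hold with DESeq2 (adjusted p = 0.1) or with libraries scaled by size alone (adjusted p = 0.076 in edgeR's test). It was also lost without MOLM13 PSPC1 knockdown library 2 or control library 2 (-0.17 in each). Exons of CSTF3 overlap TCP11L1 on the opposite strand over 8.69% and LINC00294 over 5.83% of their bases. TCP11L1 stood at 11.1 to 26.8 CPM and LINC00294 at 4.8 to 11.1, and without the strand setting their reads cannot be told apart in the shared bases.

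CSTF3 to CSTF2 was 1.54 and 1.81 in MOLM13 controls and 3.5 and 3.33 after PSPC1 knockdown, and 1.97 and 1.8 against 4.33 and 4.45 in OCIAML5. In the PU.1 experiment it was 1.55 and 1.51 against 1.75 and 1.69. The levels of CSTF3 and CSTF2 therefore stayed closer to their control ratio after PU.1 knockdown than after PSPC1 knockdown. CSTF1, the remaining CstF subunit and not one of the 10, fell 1.11-fold after PU.1 knockdown (log2 fold change -0.15, adjusted p = 0.033 in edgeR's test), less than either. It did not pass after PSPC1 knockdown in MOLM13 (0.00, adjusted p = 1) or OCIAML5 (-0.11, adjusted p = 0.32).

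PCF11 (chr11:83156988-83187451, plus strand) encodes the cleavage factor II subunit that binds the tail of RNA polymerase II. It stood at 109 and 110 CPM in MOLM13 controls and at 119 and 133 after PSPC1 knockdown. OCIAML5 libraries held 129 and 126 CPM in controls and at 186 and 184 after PSPC1 knockdown, the highest values of the 12 libraries. The PU.1 experiment gave 115 and 124 CPM in controls and 115 and 110 in knockdown. It rose 1.15-fold in MOLM13 (0.20 ± 0.055, adjusted p = 0.0014) and 1.46-fold in OCIAML5 (0.54 ± 0.053, adjusted p = 1.4e-12), in edgeR's test. The rise in MOLM13 rested on library 2, without which it was 0.11 (adjusted p = 0.2). After PU.1 knockdown PCF11 did not pass (-0.09, 95% interval -0.19 to 0.00, adjusted p = 0.096 in edgeR's test). That value turned to 0.06 when libraries were scaled by size alone, and it passed without control library 1 (-0.17, adjusted p = 0.004 in edgeR's test). PCF11-AS1 overlaps 15.2% of the exon bases of PCF11 on the opposite strand and had 0 counts in all 12 libraries. AP000873.4 overlaps 1.89% of them on the same strand, and its level was not examined. The count ratio of PCF11 to NUDT21 was 0.477 to 0.564 in the 6 controls, 1.4 and 1.64 in MOLM13 and 2.1 and 2.1 in OCIAML5 after PSPC1 knockdown, and 0.856 and 0.804 after PU.1 knockdown.

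CPSF3 (chr2:9423568-9473101, plus strand), the endonuclease that makes the cut, fell in all 3 comparisons. It stood at 111 and 107 CPM against 72.8 and 70.6 in MOLM13 and at 118 and 119 against 72.1 and 71.6 in OCIAML5. PU.1 knockdown took CPSF3 to 69.9 and 78 CPM from 102 and 105. Knockdown libraries all lay between 69.9 and 78 CPM and controls at 102 or above. The log2 fold changes were -0.61 ± 0.06 (adjusted p = 1.9e-12), -0.72 ± 0.059 (3.2e-15) and -0.49 ± 0.055 (4.4e-12) in edgeR's test.

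CPSF2 (chr14:92121937-92172145, plus strand), the partner of CPSF3 that resembles it but lacks its activity, changed less. It stood at 149 and 156 CPM against 143 and 145 in MOLM13, and at 175 and 178 against 152 and 151 in OCIAML5. PU.1 knockdown took CPSF2 to 106 and 102 CPM from 141 and 146. Groups were apart in each, by as little as 4 CPM in MOLM13. The log2 fold change was -0.08 in MOLM13 (95% interval -0.18 to 0.02, adjusted p = 0.18), -0.22 ± 0.049 in OCIAML5 after PSPC1 knockdown (adjusted p = 0.00013) and -0.47 ± 0.049 after PU.1 knockdown (adjusted p = 2.2e-13) in edgeR's test. On a scale common to all OCIAML5 libraries, the controls of the PSPC1 experiment were at 182 and 186 CPM and those of the PU.1 experiment at 140 and 145. Set against the latter, CPSF2 after PSPC1 knockdown turned to 0.13 (adjusted p = 0.02 in edgeR's test), so its direction rests on which controls are used.

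CPSF1 (minus strand of chromosome 8), the scaffold of CPSF, passed the test after PU.1 knockdown alone. It stood at 369 and 360 CPM against 383 and 373 after PSPC1 knockdown in MOLM13 and at 297 and 293 against 294 and 281 in OCIAML5. In the PU.1 experiment it stood at 354 and 344 CPM against 241 and 245. It did not pass after PSPC1 knockdown in MOLM13 (0.05, 95% interval -0.03 to 0.14, adjusted p = 0.29) or in OCIAML5 (-0.03, interval -0.12 to 0.05, adjusted p = 0.53), and it fell 1.44-fold after PU.1 knockdown (-0.52 ± 0.041, adjusted p = 2.3e-18), in edgeR's test. Scaled by library size alone it passed in MOLM13 as higher (0.1, adjusted p = 0.038 in edgeR's test). With the controls of the PU.1 experiment it passed in OCIAML5 as lower (-0.22, adjusted p = 1.9e-05 in edgeR's test). On a scale common to all OCIAML5 libraries, CPSF1 stood at 308 and 305 CPM in controls of the PSPC1 experiment. Those of the PU.1 experiment were at 350 and 341, and target and experiment cannot be told apart.

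CPSF4 (chr7:99438922-99457371, plus strand), a zinc-finger subunit that reads AAUAAA, had the lowest level per length of the 10 in every control group. It stood at 36 and 40.1 CPM against 26.7 and 26.2 in MOLM13 and at 41.6 and 36.5 against 35.5 and 34.1 in OCIAML5. In the PU.1 experiment it stood at 37.2 and 38.2 CPM against 31.5 and 33.3. CPSF4 shares 4.21% of its exon bases with AC073063.1 and 3.69% with ATP5MF-PTCD1, both on the opposite strand and with levels not examined. It fell in MOLM13 (-0.52 ± 0.097, adjusted p = 7.8e-06) and after PU.1 knockdown (-0.22 ± 0.073, adjusted p = 0.0082), and did not pass in OCIAML5 after PSPC1 knockdown (-0.17, 95% interval -0.35 to 0.02, adjusted p = 0.12), in edgeR's test. Without OCIAML5 control library 2 it passed there (-0.27, adjusted p = 0.039). The call after PU.1 knockdown was lost when libraries were scaled by size alone (-0.07, adjusted p = 0.46) or without knockdown library 1 (-0.19, adjusted p = 0.091), in edgeR's test.

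**Figure D3:**
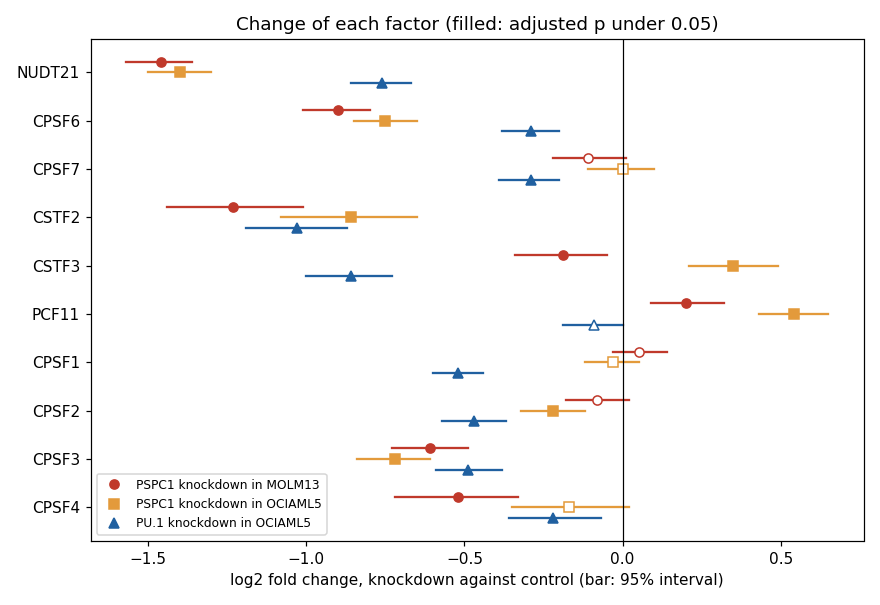
Log2 fold change of each factor, knockdown against its own controls (horizontal axis), with the 95% interval as a bar, for PSPC1 knockdown in MOLM13 (circles), PSPC1 knockdown in OCIAML5 (squares) and PU.1 knockdown (triangles); filled symbols passed an adjusted p of 0.05. NUDT21 stands lowest in both PSPC1 comparisons at -1.46 and -1.40, CSTF2 lowest after PU.1 knockdown at -1.03, and PCF11 and CSTF3 are the members with a filled symbol to the right of 0.

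Whether the lines responded differently to PSPC1 knockdown was tested as an interaction, MOLM13 minus OCIAML5. OCIAML5 cells were grown with GM-CSF, so line and medium cannot be told apart in this test. It passed for 3 of the 10 members, all lower in MOLM13, against 30.5% of all genes called in either direction, 12.5% higher and 18% lower. CSTF3 differed by -0.55 ± 0.1 (adjusted p = 1.9e-05), its fall in MOLM13 standing against its rise in OCIAML5. PCF11 differed by -0.34 ± 0.077 (adjusted p = 0.00046), having risen more in OCIAML5. CPSF4 differed by -0.35 ± 0.13 (adjusted p = 0.038 in edgeR's test), a call lost with DESeq2 (0.13), with median-ratio scaling (0.059), with no low-count filter (0.057) and in 5 of the 8 fits that left out a library. For NUDT21 the difference was -0.06 (95% interval -0.21 to 0.09, adjusted p = 0.61 in edgeR's test). For CSTF2 it was -0.36 (interval -0.67 to -0.06, adjusted p = 0.063) and for CPSF6 -0.16 (interval -0.3 to -0.01, adjusted p = 0.095), and both passed when libraries were scaled by size alone, which raised the count from 3 to 5 members. CPSF2, CPSF3, CPSF7 and CPSF1 did not pass, with differences of 0.14, 0.12, -0.10 and 0.09.

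The knockdowns of PU.1 and of PSPC1 in OCIAML5 were compared in a joined fit, each effect taken against the controls of its own experiment, as PU.1 minus PSPC1. The difference passed for 8 of the 10 members, 3 higher and 5 lower, against 45.6% of 17159 genes called, 22.8% higher and 22.9% lower. NUDT21 (0.65 ± 0.072, adjusted p = 1.5e-10), CPSF6 (0.48 ± 0.069, adjusted p = 1.3e-07) and CPSF3 (0.26 ± 0.083, adjusted p = 0.0096) fell less after PU.1 knockdown than after PSPC1 knockdown. CSTF3 differed most, by -1.20 ± 0.097 (adjusted p = 1.9e-14 in edgeR's test), having fallen in one and risen in the other. PCF11 differed by -0.62 (8.1e-10), CPSF1 by -0.47 (1.5e-08), CPSF7 by -0.27 (0.0018) and CPSF2 by -0.23 (0.0059), adjusted p in parentheses, each lower after PU.1 knockdown. CSTF2 did not pass (-0.15, 95% interval -0.41 to 0.11, adjusted p = 0.38), nor did CPSF4 (-0.03, interval -0.27 to 0.2, adjusted p = 0.85 in edgeR's test). The calls for CPSF2 and CPSF3 were lost without PU.1 knockdown library 2 (adjusted p = 0.1 and 0.11), and that for CPSF3 with no low-count filter (0.13). Line and medium were the same in both experiments, while the experiment and the target cannot be told apart.

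Levels between genes were compared per kilobase of merged exons of a GENCODE annotation of GRCh38, which may differ from the annotation used for counting. In MOLM13 controls the mean CPM per kilobase was 60 for CPSF1, 38.3 for NUDT21, 28.9 for CPSF3, 25.6 for CPSF6, 20 for CPSF7, 18.7 for CSTF2, 15.1 for CSTF3, 11.2 for CPSF2, 11 for PCF11 and 8.95 for CPSF4. The order was the same in both sets of OCIAML5 controls, except that PCF11 (12) stood above CPSF2 (10.6) in those of the PU.1 experiment. Not every step in that order exceeds the spread: CPSF2 and PCF11 overlapped in the MOLM13 and PSPC1-experiment OCIAML5 controls, and CSTF3 overlapped both in the latter. CPSF3 and CPSF6 overlapped in the PU.1-experiment controls, and CPSF7 and CSTF2 in the MOLM13 controls. After PSPC1 knockdown NUDT21 went from rank 2 to rank 4 in MOLM13 (13.9 CPM per kilobase) and rank 7 in OCIAML5 (14.8). Its knockdown libraries overlapped those of CPSF6 in both lines, so its exact rank there is uncertain. CSTF3 went to rank 10 after PU.1 knockdown (7.11 CPM per kilobase).

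**Figure D4:**
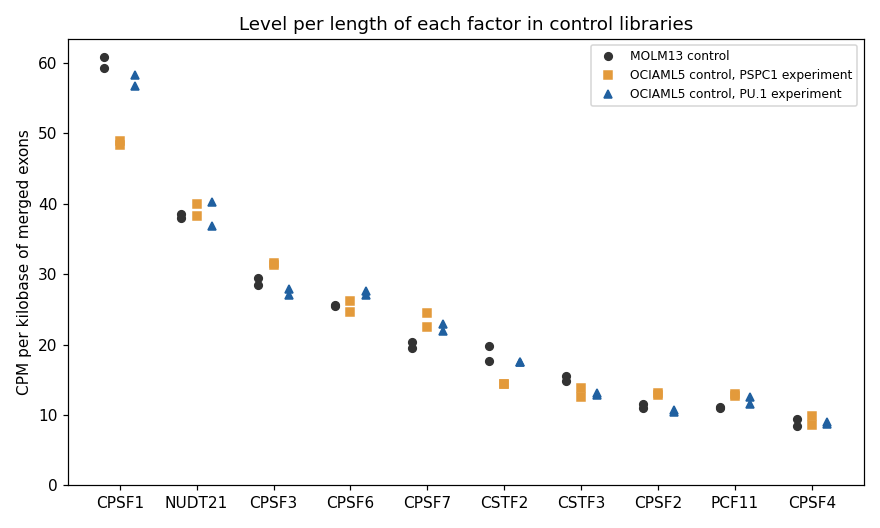
Level of each factor in CPM per kilobase of merged exons (vertical axis, from 0) in the 6 control libraries, with circles for MOLM13, squares for OCIAML5 of the PSPC1 experiment and triangles for OCIAML5 of the PU.1 experiment. CPSF1 stands highest, at 48.3 to 60.8, and CPSF4 lowest, at 8.47 to 9.79, in every control group.

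Between control cells of the lines in the PSPC1 experiment, 6 of the 10 members passed the test, 3 higher and 3 lower in MOLM13, against 60.6% of all genes called, 30% higher and 30.7% lower, so the members' share lay near the background. The control libraries of the lines did not overlap for 7 members and for 78.8% of all genes. Line and medium cannot be told apart here either, as OCIAML5 cells were grown with GM-CSF. CPSF1 (0.31, adjusted p = 2e-08), CSTF2 (0.38, adjusted p = 0.00089) and CSTF3 (0.20, adjusted p = 0.015) were higher in MOLM13 in edgeR's test. CPSF7 (-0.24, adjusted p = 0.00016), PCF11 (-0.22, adjusted p = 0.00057) and CPSF2 (-0.21, adjusted p = 0.00022) were lower. NUDT21 (-0.03, 95% interval -0.13 to 0.06) and CPSF6 (0.00, interval -0.09 to 0.1) did not pass, nor did CPSF3 (-0.12) and CPSF4 (-0.04). CPSF3 passed as lower with median-ratio scaling (-0.13, adjusted p = 0.048) and with scaling by library size (-0.17, adjusted p = 0.0078), and the CSTF2 call was lost without MOLM13 control library 1 (0.29, adjusted p = 0.05), all in edgeR's test. The CSTF3 call was lost with DESeq2 (adjusted p = 0.053), with scaling by library size (0.076) and without control library 2 of MOLM13 (0.094) or of OCIAML5 (0.18).

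NEAT1, whose short isoform ends at the site printed above, was higher in every knockdown. It stood at 175 and 180 CPM in MOLM13 controls and 405 and 414 after PSPC1 knockdown, at 211 and 199 against 317 and 315 in OCIAML5, and at 194 and 189 against 344 and 320 in the PU.1 experiment. The log2 fold changes were 1.21 ± 0.045 (adjusted p = 3.1e-28), 0.62 ± 0.045 (4.4e-17) and 0.79 ± 0.043 (2.6e-26) in edgeR's test. NUDT21 (-1.46, -1.40 and -0.76) and CPSF6 were lower in the same 3 comparisons. So were CSTF2, CPSF3, PAPOLA and the proliferation markers, and 29.5%, 28.4% and 30.9% of all genes were called lower. A link between these factors and the NEAT1 level was not tested. Counts per gene do not separate the NEAT1 isoforms, so site choice was not measured. The libraries were made from poly(A) RNA, and how well each isoform was captured is unknown here. The rise can therefore not be assigned to either isoform.

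The gene with the profile nearest to that of NUDT21 over the 12 libraries, by Euclidean distance of log2(CPM + 1) values centered on the controls of each table and line, was MAPK6 at 0.258, which encodes an atypical MAP kinase. DUT (0.288), whose enzyme degrades dUTP, POLD3 (0.302), of DNA polymerase delta, USP39 (0.311), a splicing factor, and EZH2 (0.312), a histone methyltransferase, followed among 15396 genes. Their log2 fold changes lay within 0.2 of those of NUDT21 in every knockdown comparison, which follows from choosing them by distance. Among the members the nearest was CSTF2 (0.963, rank 368), followed by CPSF6 (1.38, rank 872) and CPSF3 (1.59, rank 1180), and PCF11 was the farthest (3.72, rank 10619).

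The counts for related gene lists stand beside the shares of all genes called, 27.6% higher and 29.5% lower in MOLM13, 27.5% and 28.4% in OCIAML5 after PSPC1 knockdown, and 29.6% and 30.9% after PU.1 knockdown. Of 13 core 3′ end factors outside the 10, 3 rose and 4 fell in MOLM13, 5 rose and 3 fell in OCIAML5 after PSPC1 knockdown, and 1 rose and 7 fell after PU.1 knockdown. Their median log2 fold change was 0.00, 0.09 and -0.15. PAPOLA, the main nuclear poly(A) polymerase, stood out in the direction of NUDT21. Its group means were 458 ± 3.3 CPM (SD, n = 2) in MOLM13 controls and 164 ± 0.12 after PSPC1 knockdown. In OCIAML5 they were 415 ± 11 against 185 ± 9.4, and 475 ± 7.1 against 340 ± 1.8 in the PU.1 experiment. The log2 fold changes were -1.48 (adjusted p = 1.1e-31), -1.16 (1.1e-27) and -0.48 (1.2e-17) in edgeR's test. RBBP6, which activates the CPSF endonuclease, rose by 0.21 in MOLM13 and by 0.86 in OCIAML5 after PSPC1 knockdown and fell after PU.1 knockdown (-0.24, adjusted p = 4.8e-06). SYMPK, the scaffold symplekin, fell in all 3 comparisons (-0.42, -0.49 and -0.28). PABPN1, the nuclear poly(A)-binding protein, rose by 0.39 in MOLM13 and 0.65 in OCIAML5 after PSPC1 knockdown and did not pass after PU.1 knockdown (-0.11). The phosphatase SSU72 fell in MOLM13 (-0.40) and after PU.1 knockdown (-0.69) and did not pass in OCIAML5 after PSPC1 knockdown (0.05). PPP1CA, another phosphatase, fell after PU.1 knockdown (-0.62) and did not pass after PSPC1 knockdown (-0.08 in both lines).

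Of 7 factors of histone mRNA 3′ ends, which are cut without a poly(A) tail and share CPSF3 with the members, none rose after PSPC1 knockdown, 5 fell in MOLM13 and 4 in OCIAML5, and 1 rose and 5 fell after PU.1 knockdown. SLBP, which binds the histone stem loop, fell by 1.21, 0.65 and 1.00 on the log2 scale in the 3 comparisons, and CASP8AP2 by 1.37, 1.10 and 0.37. Of 15 Integrator subunits, which end the transcripts of small nuclear RNAs, 1 rose and 8 fell in MOLM13, 3 rose and 9 fell in OCIAML5 after PSPC1 knockdown, and 1 rose and 9 fell after PU.1 knockdown. INTS3 rose in all 3 comparisons (1.04, 1.02 and 0.25), while INTS13 fell after PSPC1 knockdown (-0.85 and -0.67) and did not pass after PU.1 knockdown (0.07). Of 13 regulators of termination and early polyadenylation, 2 rose and 5 fell, 6 rose and 3 fell, and 1 rose and 9 fell in the same order. CDK12, a kinase of RNA polymerase II whose loss is known to favor early polyadenylation, rose by 0.61 in OCIAML5 after PSPC1 knockdown, did not pass in MOLM13 (0.09, adjusted p = 0.1) and fell after PU.1 knockdown (-0.21, adjusted p = 7.1e-05). SNRPA, of the U1 particle, fell in all 3 (-0.55, -0.41 and -0.61). Of 14 genes that bind or remove poly(A) tails, 4 rose and 6 fell, 3 rose and 9 fell, and 2 rose and 9 fell. CNOT8, a deadenylase, rose by 0.67 in MOLM13 and 0.17 in OCIAML5 after PSPC1 knockdown and fell by 0.98 after PU.1 knockdown. Of 9 genes listed for NEAT1 isoform choice, which include NEAT1 and PSPC1 themselves, 1 rose and 7 fell, 2 rose and 5 fell, and 1 rose and 7 fell. HNRNPK, which is known to oppose cleavage factor Im at the NEAT1 site, fell by 0.40 in MOLM13 and by 0.38 after PU.1 knockdown and did not pass in OCIAML5 after PSPC1 knockdown (-0.09, adjusted p = 0.063 in edgeR's test).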

How the data were processed

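Poly(A) RNA of 12 libraries was measured, per the labels with a stranded mRNA kit after TRIzol extraction. The authors deposited raw counts per gene in 2 tables, 8 libraries for PSPC1 and 4 for PU.1. The submitters' processing notes name, without roles, the GRCh38 genome and DESeq2 1.36.0, HTSeq 2.0.2, STAR 2.7.10a and Trim Galore 0.6.7. Neither annotation release nor strand setting is given in the sources.

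Groups follow the labels. The test was that of edgeR 4.0.16 in R 4.3.3 (filterByExpr, TMM, quasi-likelihood F tests) in models of 4 groups (PSPC1 table, 4 residual degrees of freedom), 2 groups (PU.1 table, 2) and 4 groups (8 OCIAML5 libraries joined, 4), with Benjamini-Hochberg adjustment over all genes tested, a threshold of 0.05 and 6 comparisons. The SE of a log2 fold change was its size divided by the root of F. The biological coefficient of variation was 4.73%, 4.08% and 4.5%. Replicate libraries varied 2.6 to 3.79 times as much as counting alone gives (variance), so no pair agreed within sampling noise. The method was tested on simulated data.

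The members, gene lists and tests were chosen with earlier results of these data known. Named genes were the 10 members, PSPC1, SPI1, NEAT1, up to 3 genes with the smallest adjusted p per list and knockdown, and the 5 profiles nearest to NUDT21. CSTF1, CSTF2T and HNRNPK were chosen after their values were seen. INTS15 was matched by its older name C7orf26. Alternatives were DESeq2 1.42.0, median-ratio (RLE) scaling, library size alone, no filter, 1 CPM in 2 libraries, an adjusted p of 0.01, a replicate block, other sets of libraries in the fit, and leaving out each library. Figures were drawn with matplotlib 3.10.9 in Python 3.11.15.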

Additional observations from a re-analysis of the deposited data

Results flagged for a closer look

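The effect of PSPC1 knockdown differed between the lines, by the interaction test of edgeR, for CSTF3 (-0.55), CPSF4 (-0.35) and PCF11 (-0.34), as log2 differences of MOLM13 minus OCIAML5. Of all genes tested 30.5% differed, and the CPSF4 call was lost with DESeq2 (adjusted p = 0.13). Line and medium (GM-CSF for OCIAML5) cannot be told apart in this test. CSTF3 fell in MOLM13 and rose in OCIAML5, PCF11 rose in both, and CPSF4 passed in MOLM13 alone. The CSTF3 call in MOLM13 was lost with DESeq2 (adjusted p = 0.1) and with libraries scaled by size alone (adjusted p = 0.076 in edgeR's test). The PCF11 rise in MOLM13 rested on knockdown library 2, without which it was 0.11.

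The effects of PU.1 and PSPC1 knockdown in OCIAML5 differed for 8 members, as log2 differences of PU.1 minus PSPC1, where 45.6% of all genes differed. CSTF3 (-1.2), PCF11 (-0.62), CPSF1 (-0.47), CPSF7 (-0.27) and CPSF2 (-0.23) were lower after PU.1 knockdown. NUDT21 (0.65), CPSF6 (0.48) and CPSF3 (0.26) fell less after PU.1 knockdown than after PSPC1 knockdown. The calls for CPSF2 and CPSF3 were lost without PU.1 knockdown library 2 (adjusted p = 0.1 and 0.11 in edgeR's test).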

How the results depend on the processing

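Of 858 values of single genes under the alternatives, 800 kept their direction and their side of the threshold, 30 lost their call, 10 gained one and 18 turned sign. The falls of NUDT21, CPSF6, CSTF2 and CPSF3 in all 3 knockdowns kept their direction and their call under every alternative run. Scaling by library size alone moved the all-gene median after PU.1 knockdown (log2) from 0.02 to 0.171 (6583 higher and 3995 lower against 4983 and 5206), and that of PSPC1 knockdown in OCIAML5 to 0.098 (5201 and 4183 against 4533 and 4681). It also raised the members called as different between lines from 3 to 5. Of all genes, 1907 were then called higher and 3279 lower in that test, against 2055 and 2966. Most values that turned sign were small. Under library size alone they were CPSF1 (0.05) and CPSF7 (0.08) after PSPC1 knockdown in OCIAML5, PCF11 after PU.1 knockdown (0.06), CPSF4 in the difference between targets (0.02) and CPSF6 between the controls of the lines (-0.05). The last was -0.0049 with DESeq2, -0.0047 with RLE scaling and -0.04 without a control library of OCIAML5. CPSF7 after PSPC1 knockdown in OCIAML5 was 0.0045 with a filter of 1 CPM, and ran from -0.07 to 0.05 (also 0.02) without single libraries. With the controls of the PU.1 experiment, chosen after the data were seen, CPSF7 and CPSF2 were both 0.13. Both then passed as higher in edgeR's test (adjusted p = 0.025 and 0.02). Against its own controls CPSF2 had passed as lower (-0.22, adjusted p = 0.00013 in edgeR's test). Leaving out single libraries, CPSF4 ran from -0.11 to 0.06 in the difference between targets (0.0076, 0.02 and 0.06 where it turned), and from -0.13 to 0.06 between the controls of the lines (0.04 and 0.06). The cause of these turns was not tested. Leaving out a library left as few as 1 in a group, whose spread is then assumed to be that of the other groups.

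The replicate block changed no call of a member, with 7, 7, 9, 3, 8 and 6 members called in the 6 comparisons as without it. Without the block, 57%, 56%, 60.4%, 30.5%, 45.6% and 60.6% of all genes were called in that order. Deviations of libraries with the same number correlated at 0.0125, 0.00149 and -0.0248, so the numbers were not taken as pairs. With 2 libraries per group, both spread and depth limit small differences. The lowest members, CSTF2 and CPSF4, had SEs of 0.11 and 0.097 after PSPC1 knockdown in MOLM13 and of 0.081 and 0.073 in the deeper PU.1 table, against 0.042 and 0.041 for CPSF1.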
